A study of Homo sapiens with 6 samples.

Results

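The 10 genes described here are LGR4, LGR5, LGR6, RNF43, ZNRF3, RSPO1, RSPO3, AXIN2, APCDD1 and NKD1, the receptors, ligands and feedback genes around R-spondin and Wnt signalling. They were taken by gene symbol: every probe set annotated with 1 of these symbols alone was used, 19 of 41091 such probe sets, and the 10 genes stood among 19775 genes measured. The genes were chosen by their pathway around LGR5, after the change of LGR5 between the groups had been seen, so the differences of LGR5 describe it. Where a gene had several probe sets, it was represented by the one whose log2 mean across the 6 arrays was highest, which does not use the groups. Expression was measured on Affymetrix U133 Plus 2.0 arrays in SW-1990, an established pancreatic adenocarcinoma cell line derived from a spleen metastasis. In 3 sh-PRLR samples a lentivirus had brought in a hairpin RNA (shRNA) that targets the transcript of PRLR, the receptor for prolactin, and in 3 sh-Ctrl samples a scrambled shRNA. All of the cells had been kept in puromycin at 1 μg/ml for more than 7 days, and the labels give no number of clones or hairpins. The labels call the samples of a group biological replicates without saying that they came from separate infections or cultures, and p-values measure the spread between these samples. The question asked was which of these transcripts differed after knockdown of PRLR.

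Wnt proteins bind Frizzled and LRP receptors and stabilise beta-catenin, which acts with TCF and LEF factors on target genes. RNF43 and ZNRF3 are membrane ubiquitin ligases that remove Frizzled receptors from the cell surface. R-spondins bind LGR receptors and these ligases, take the ligases out of the membrane and so raise the response to Wnt. AXIN2, APCDD1, NKD1, RNF43 and ZNRF3 are themselves targets that dampen the pathway, and LGR5 is a Wnt target known as a marker of intestinal stem cells.

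Values are log2 expression as deposited. A change is the sh-PRLR mean minus the sh-Ctrl mean, and ± gives the SD of 3 arrays. "Fell" and "rose" are used where the adjusted p was under 0.05 in limma with intensity-dependent variance, adjusted over all genes, or over all 41091 probe sets where a single probe set is meant. Correlations between arrays over all genes were 0.953 to 0.957 within groups and 0.950 to 0.953 between groups. Over genes above the median level, the root mean square deviation from the group mean was 0.136 for sh-PRLR replicate 1, against 0.109 to 0.122 on the other arrays. The 3' control probe sets exceeded the 5' ones by 2.99 to 3.11 in sh-PRLR and 3.05 to 3.36 in sh-Ctrl for ACTB. For GAPDH the excess was 0.09 to 0.20 and 0.19 to 0.28. The mean of each of the 7 PRLR probe sets was lower in sh-PRLR, by -1.82 to -0.18, and 0 of them passed. All 7 were dim, with mean levels of 3.82 to 5.58, below the median gene level of 7.23. For 3 of the 7 the groups did not overlap, with changes of -1.82, -1.30 and -0.78, and for the rest they overlapped. In this line the 6 epithelial and duct markers examined (KRT7, KRT8, KRT18, KRT19, EPCAM and CDH1) were all above the median gene level of 7.23, with linear levels that summed to between 91000 and 93874 in sh-PRLR, against 90704 and 96899 in sh-Ctrl. CDH1, E-cadherin, fell by 0.17 on the log2 scale (limma adjusted p = 0.0284, and 0.293 with default settings). Of the fibroblast, endothelial and leukocyte markers, COL1A1 and PECAM1 were above that median, and the 3 lists summed to at most 418, 252 and 201 in sh-PRLR, against 402, 189 and 170 in sh-Ctrl. In an extract of many cells, fewer cells with a transcript and less transcript in each cell cannot be told apart.

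In sh-PRLR cells 4 of the 10 genes fell: LGR5 and APCDD1 by more than 2-fold, and AXIN2 and ZNRF3 to 73.9% and 74.9% of the control level. None rose, and 1 that was higher, RNF43, had an unadjusted p under 0.05 in limma. With an offset of 64 added on the linear scale, the change of APCDD1 was -0.73 in place of -1.09, short of 2-fold. RNF43, the other ligase gene, and LGR6 were higher without passing, the receptor gene LGR4 was close to equal, and the R-spondin genes and NKD1 were dim, with groups that overlapped. The count of 4 stands beside 4.32% of all genes that fell (854 of 19775), while 3.34% rose and 7.66% passed in all. With default limma settings LGR5 alone of the 10 passed, against 0.0202% of all genes (0.0101% lower and 0.0101% higher), and 5 of the 10 had an unadjusted p under 0.05, against 16.2% of all genes. Calls depended on level, so the share is also given by brightness, with genes cut into 5 equal bins by mean level. In the brightest bin, where LGR5, AXIN2, ZNRF3 and RNF43 lie, 9.05% of genes fell, and in the middle bin, where APCDD1 lies, 3.03% fell. The groups did not overlap for 6 of the 10 genes, 4 lower and 2 higher, against 25.8% of all genes, 14.1% lower and 11.7% higher. The median change of the 10 genes was -0.27, against -0.0013 over all genes. These counts describe the genes and are no independent support.

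**Figure D1:**
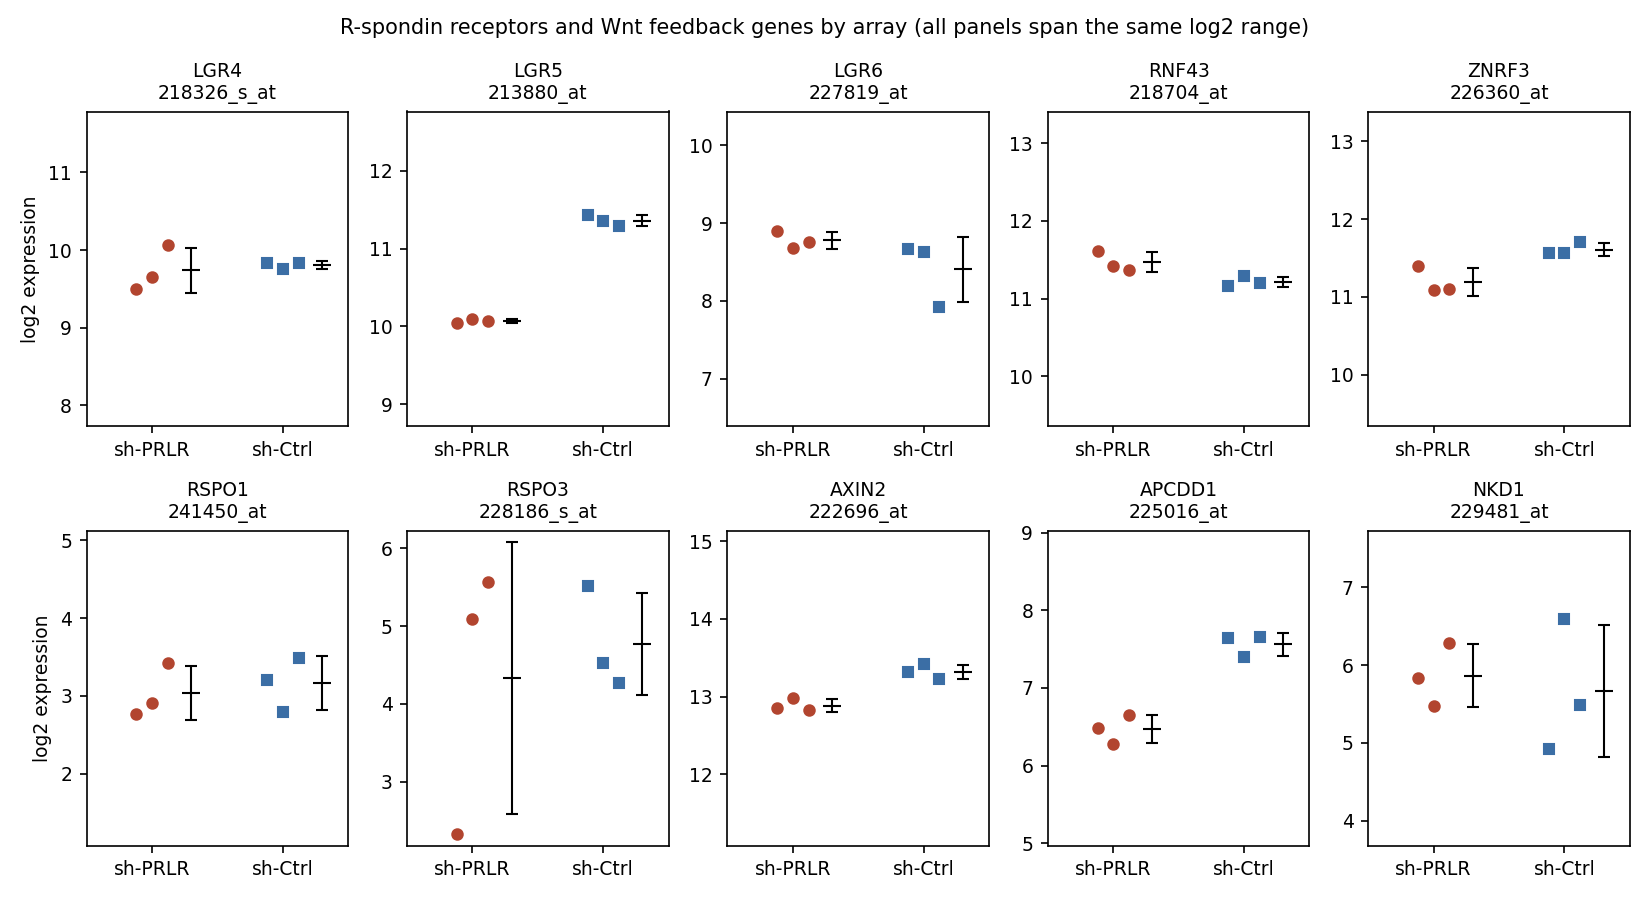
Log2 expression of the 10 genes on each array, with sh-PRLR arrays as circles on the left and sh-Ctrl arrays as squares on the right of each panel. Horizontal marks and bars are the mean and SD of 3 arrays. LGR5, ZNRF3, AXIN2 and APCDD1 have every sh-PRLR array below every sh-Ctrl array, and the dim RSPO3 and NKD1 scatter over more than 1 log2 unit within a group.

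Among the R-spondin receptors, LGR5 had the largest change. Its probe set 213880_at read 10.04, 10.09 and 10.07 in sh-PRLR, against 11.43, 11.35 and 11.30 in sh-Ctrl. The groups were 1.21 apart at their closest arrays. LGR5 averaged 10.07 ± 0.02 in sh-PRLR and 11.36 ± 0.07 in sh-Ctrl, a fall to 40.9% of the control level (log2 change -1.29, SE 0.06, limma adjusted p = 9.24e-06 with intensity-dependent variance and 0.0449 with default settings). The other LGR5 probe set, 210393_at, which did not choose the gene's value, read 7.83, 7.80 and 7.59 in sh-PRLR, against 8.72, 9.04 and 8.81 in sh-Ctrl. It too was separated in every array and fell by 1.11 on the log2 scale (SE 0.13, limma adjusted p = 0.00137 over all probe sets, and 0.116 with default settings), to 46.2% of control. Both LGR5 probe sets read the same RNA extracts and are not replicates of each other.

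LGR4, the broadly expressed receptor of the family, read 9.50, 9.65 and 10.06 in sh-PRLR, against 9.84, 9.75 and 9.83 in sh-Ctrl for its brightest probe set 218326_s_at. The sh-PRLR arrays lay on both sides of the sh-Ctrl arrays. Its change was -0.07 with a 95% interval of -0.35 to 0.22 (limma adjusted p = 0.832). The remaining LGR4 probe sets, 230674_at and 222596_s_at, lay between 0.95 and 2.13 on all arrays, and their changes of -0.31 and 0.24 had SEs of 0.78 and 0.79. LGR6, a receptor best known from skin and hair follicle stem cells, read 8.90, 8.68 and 8.76 in sh-PRLR, against 8.67, 8.62 and 7.92 in sh-Ctrl. The groups were separated by only 0.01, and sh-Ctrl replicate 3 was the low array. Its change of 0.37, with a 95% interval of -0.04 to 0.78, did not pass (limma adjusted p = 0.298).

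Within each array, the log2 difference of LGR5 over LGR4 was 0.54, 0.44 and 0.01 in sh-PRLR, against 1.60, 1.60 and 1.47 in sh-Ctrl. This difference shifted by -1.22 between groups and was lower on every sh-PRLR array. The same difference for LGR5 over LGR6 shifted by -1.66. These shifts describe unequal change of the receptors and do not compare their amounts, because each probe set has its own response. They were chosen after the values were seen and were given no test.

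The ligase genes had changes of opposite sign. ZNRF3 (226360_at) read 11.39, 11.08 and 11.10 in sh-PRLR, against 11.56, 11.56 and 11.70 in sh-Ctrl. Every sh-PRLR array lay below every sh-Ctrl array, the closest by 0.17. ZNRF3 fell to 74.9% of control (log2 change -0.42, SE 0.09, limma adjusted p = 0.0149 with intensity-dependent variance and 0.196 with default settings). This call was also lost with arrays centred on their medians (limma adjusted p = 0.0819) and without any 1 of 4 of the 6 arrays, sh-PRLR replicate 2 or 3 or sh-Ctrl replicate 2 or 3 (highest limma adjusted p = 0.0681).

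RNF43 (218704_at) read 11.61, 11.42 and 11.37 in sh-PRLR, against 11.16, 11.29 and 11.20 in sh-Ctrl. Every sh-PRLR array lay above every sh-Ctrl array, by 0.08 at the closest. The change of 0.25 had a 95% interval of 0.09 to 0.41 and did not pass (SE 0.07, limma adjusted p = 0.0628). It passed with quantile normalisation (limma adjusted p = 0.0497) and without the dimmest 40% of genes (limma adjusted p = 0.0309). Under the other 13 of 15 alternatives RNF43 did not pass. Among these were default settings (limma adjusted p = 0.297) and arrays centred on their medians (limma adjusted p = 0.413). The within-array difference of ZNRF3 over RNF43 was -0.22, -0.34 and -0.27 in sh-PRLR, against 0.40, 0.28 and 0.50 in sh-Ctrl, a shift of -0.67 with no overlap, given without a test for the same reason as above.

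The secreted R-spondins, the ligands of the LGR receptors, were among the dim probe sets. RSPO1 (241450_at) read 2.77, 2.91 and 3.43 in sh-PRLR, against 3.20, 2.80 and 3.49 in sh-Ctrl. RSPO3 (228186_s_at) read 2.33, 5.09 and 5.57 in sh-PRLR, against 5.52, 4.53 and 4.27 in sh-Ctrl. The groups overlapped for both genes, and the RSPO3 mean in sh-PRLR rests on the low value of replicate 1, without which its change of -0.45 became 0.56. Their 95% intervals, -1.81 to 1.55 for RSPO1 and -2.37 to 1.48 for RSPO3, take their width in part from other genes of that level and reach past 2-fold either way. With default limma settings, which do not use the level, the interval was -0.80 to 0.54 for RSPO1, within 2-fold, and -2.93 to 2.04 for RSPO3. No detection call was used here, and whether either transcript was present above background was not tested.

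AXIN2, a scaffold of the beta-catenin destruction complex and a widely used readout of Wnt activity, was the brightest of the 10 by the probe set that stood for it. This probe set, 222696_at, read 12.85, 12.98 and 12.83 in sh-PRLR, against 13.32, 13.42 and 13.23 in sh-Ctrl. The groups did not overlap, and AXIN2 fell to 73.9% of control (log2 change -0.44, SE 0.06, limma adjusted p = 0.00195 with intensity-dependent variance and 0.128 with default settings). A second probe set, 224176_s_at, read 10.25, 10.17 and 10.11 in sh-PRLR, against 10.42, 10.54 and 10.56 in sh-Ctrl, and fell by 0.33 on the log2 scale (limma adjusted p = 0.0316 over all probe sets). The call of 224176_s_at was lost after median centring (limma adjusted p = 0.198) and without any 1 of 5 of the 6 arrays, all but sh-PRLR replicate 1 (highest limma adjusted p = 0.131).

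The dim AXIN2 probe sets differed from each other. 222695_s_at was separated in every array, at 6.33, 5.65 and 6.55 in sh-PRLR, against 7.45, 6.77 and 6.92 in sh-Ctrl, and its change was -0.87, short of the threshold (limma adjusted p = 0.148 over all probe sets). 224498_x_at, of a type that can hybridise to other transcripts, averaged 6.91 ± 0.24 in sh-PRLR and 6.91 ± 0.24 in sh-Ctrl. With all 4 AXIN2 probe sets averaged, the change was -0.41 and did not pass (limma adjusted p = 0.0624).

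APCDD1, a membrane inhibitor of Wnt signalling, had the second largest fall. Probe set 225016_at read 6.49, 6.28 and 6.65 in sh-PRLR, against 7.65, 7.39 and 7.65 in sh-Ctrl. The groups were 0.75 apart, and APCDD1 fell to 46.9% of control (log2 change -1.09, SE 0.20, limma adjusted p = 0.00900 with intensity-dependent variance and 0.0713 with default settings). Its mean of 7.02 lay just below the median gene level. The dimmer 240211_at read 3.21, 4.83 and 4.84 in sh-PRLR, against 4.49, 5.47 and 5.55 in sh-Ctrl. Its mean was lower in sh-PRLR as well, by -0.87, but the groups overlapped and it did not pass (limma adjusted p = 0.575 over all probe sets). With the APCDD1 probe sets averaged, the change of -0.98 did not pass (limma adjusted p = 0.181).

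NKD1, an inhibitor that binds Dishevelled, was dim by all 3 of its probe sets. 229481_at, which stood for the gene, read 5.84, 5.47 and 6.29 in sh-PRLR, against 4.92, 6.59 and 5.49 in sh-Ctrl. The sh-PRLR arrays lay within the range of sh-Ctrl, and the change of 0.20 had a 95% interval of -0.84 to 1.24 (limma adjusted p = 0.868). The change was 0.16 for 232203_at and -0.06 for 1553115_at, with SEs of 0.43 and 0.73. The choice of the probe set for NKD1 was close, with means of 5.77 for the chosen one and 5.36 for the next.

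**Figure D2:**
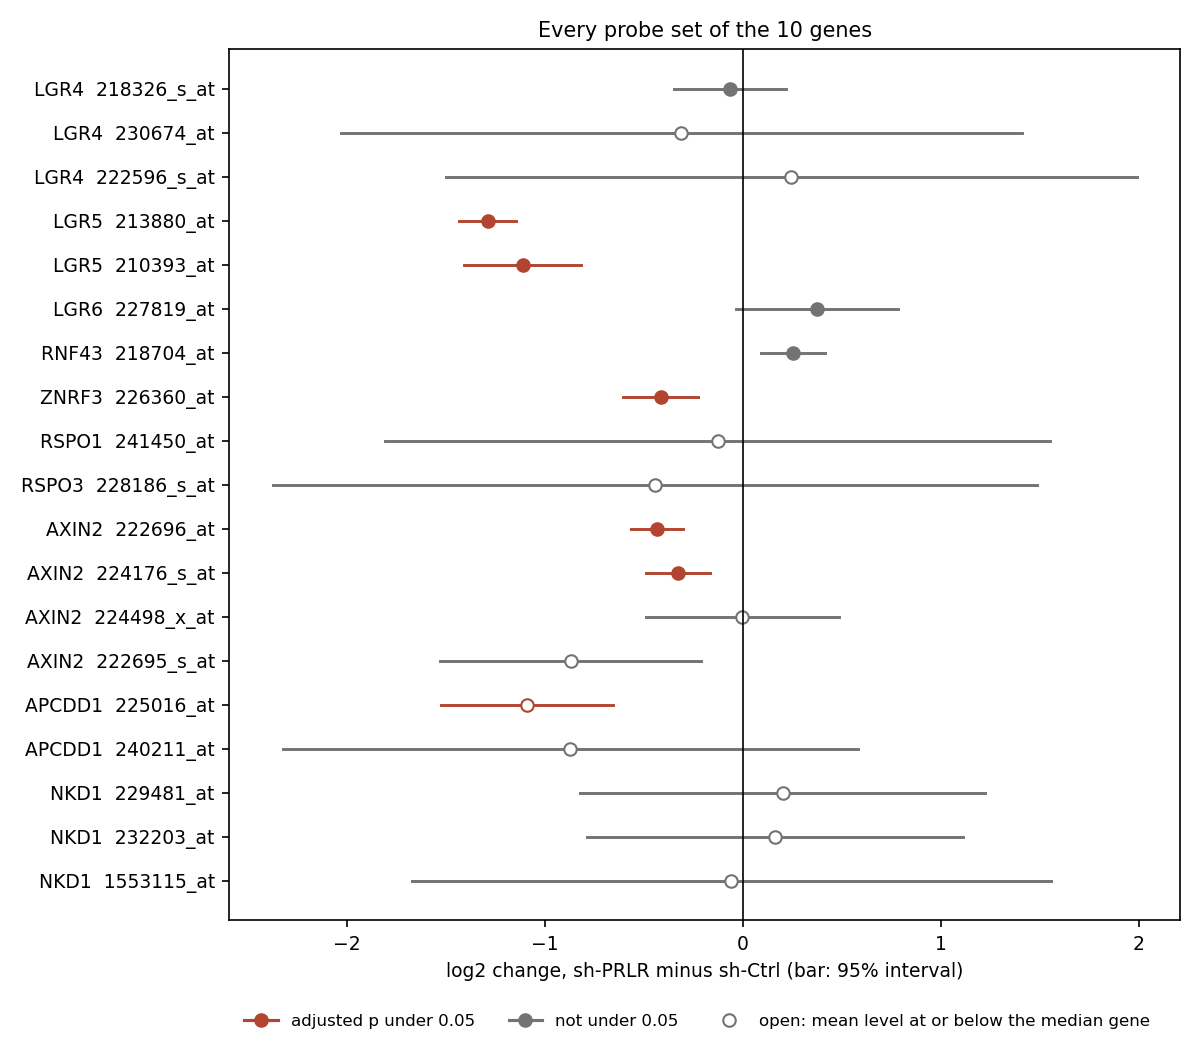
Log2 change (sh-PRLR minus sh-Ctrl) of all 19 probe sets of the 10 genes with the 95% interval from limma with intensity-dependent variance. Filled points have a mean level above the median gene, and the 6 probe sets in red, of LGR5, ZNRF3, AXIN2 and APCDD1, fell.

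Of the 19 probe sets, 14 had a lower mean in sh-PRLR and 5 a higher one, 6 fell and 0 rose. Of all probe sets with 1 symbol 2.5% fell and 2.17% rose, 4.67% in all. The groups did not overlap for 9 of the 19, 7 lower and 2 higher, against 22.6% of all probe sets, 11.6% lower and 11% higher. Only 1 of the 5 higher ones, that of RNF43, had an unadjusted p under 0.05 in the limma fit. With default limma settings 0 of the 41091 probe sets passed (0%), while 5230 of all and 7 of the 19 had an unadjusted p under 0.05. The median SD between arrays of a group was 1.18 for genes in the dimmest bin, which holds RSPO1 with an SD of its own of 0.348, and it was 0.748 in the next, which holds RSPO3 and NKD1, and 0.0702 in the brightest.

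**Figure D3:**
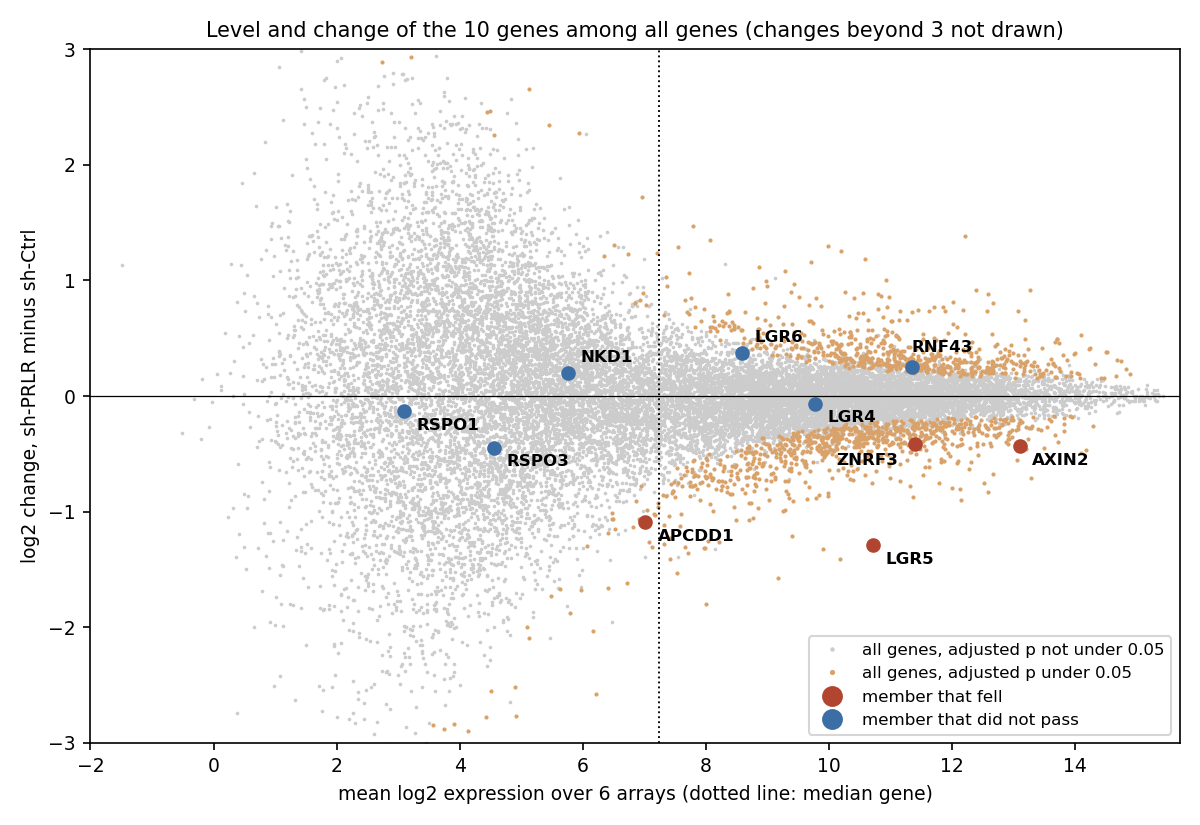
Mean log2 expression over 6 arrays against log2 change (sh-PRLR minus sh-Ctrl) for all 19775 genes, with the 10 genes named and the median gene level dotted. The spread of changes narrows with level, so that the change of -0.42 of ZNRF3 lies among called genes and the change of -0.45 of RSPO3 does not.

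The promoter windows of RefSeq (GRCh38.p14) held 6 of the 10 genes: LGR4, LGR6, RNF43, RSPO1, RSPO3 and APCDD1. LGR5, ZNRF3, AXIN2 and NKD1 are named only. The 250 bases before the transcript start are shown for APCDD1, the gene of these that fell, at chr18:10454385-10454634 on the plus strand, and for the more upstream start of RNF43, the ligase gene that was higher, at chr17:58417535-58417784 on the minus strand. Capitals mark CTTTG, the core of the TCF and LEF motif, searched on both strands. APCDD1 had a GC content of 77.2%, RNF43 of 56%, and the median of all 35116 windows was 58%.
APCDD1: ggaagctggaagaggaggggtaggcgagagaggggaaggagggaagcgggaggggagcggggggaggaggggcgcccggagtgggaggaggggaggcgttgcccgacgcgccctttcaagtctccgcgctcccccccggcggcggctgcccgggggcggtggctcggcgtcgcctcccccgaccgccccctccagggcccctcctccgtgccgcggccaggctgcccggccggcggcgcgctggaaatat
RNF43: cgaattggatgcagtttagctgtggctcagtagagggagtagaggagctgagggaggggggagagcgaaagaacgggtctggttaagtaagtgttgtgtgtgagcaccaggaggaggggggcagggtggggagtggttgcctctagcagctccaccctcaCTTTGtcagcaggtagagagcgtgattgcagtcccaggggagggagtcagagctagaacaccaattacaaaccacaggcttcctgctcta
The core CTTTG occurred 1 time in the RNF43 window, on the strand shown and starting at base 161 of the window, and 0 times in the APCDD1 window. It was also in 1 LGR6 window, the other RNF43 window and the RSPO3 window, so 4 of the 9 windows of these genes held it, against 42.1% of all windows of this length. The longer CTTTGA, which contains the core, was in 11.2% of all windows and in 0 of the 9 windows of these genes. A match is a description and not a binding site.

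The wider Wnt feedback and target genes held falls and a rise. Of 16 genes listed 15 were tested, with a median change of -0.23, and 3 fell and 1 rose. The 3 are 20% of those tested, against 4.32% of all genes that fell, while 3.34% of all genes rose. By brightness, ETS2 and TCF7L2 lie in the brightest bin, where 9.05% of genes fell. BAMBI lies in the bin below it, where 8.95% fell. BAMBI, a decoy receptor of the TGF-beta family and Wnt target, read 10.13, 10.01 and 10.02 in sh-PRLR, against 10.58, 10.69 and 10.68 in sh-Ctrl (log2 change -0.60, SE 0.07, limma adjusted p = 0.000878). The transcription factor gene ETS2 fell to 11.10 ± 0.06 in sh-PRLR, against 11.53 ± 0.07 in sh-Ctrl (limma adjusted p = 0.00233). TCF7L2, the TCF factor that binds beta-catenin in gut epithelium, fell by 0.23 on the log2 scale (limma adjusted p = 0.0153), and all 7 of its probe sets had a lower mean in sh-PRLR. CCND1, cyclin D1, rose to 11.70 ± 0.10, against 11.45 ± 0.04 in sh-Ctrl (limma adjusted p = 0.0354 over all genes). Of its 2 probe sets 0 had a lower mean in sh-PRLR, 1 was without overlap, and 0 passed when adjusted over all probe sets. With default limma settings 0 of the 15 genes passed, against 0.0202% of all genes. There 5 of the 15 had an unadjusted p under 0.05, against 16.2% of all genes.

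Of 16 genes listed as intestinal stem cell genes beside LGR5, 14 were tested, with a median change of -0.18, and 1 fell and 0 rose in the limma fit, where 4 had an unadjusted p under 0.05. The share that fell, 7.14%, was close to the 4.32% of all genes. Under 0.05 in either direction were 28.6%, against 20.3% of all genes. All 4 under 0.05 were lower, against 2257 of 19775 genes lower with an unadjusted p under 0.05. The mean was lower in sh-PRLR for 11 of the 14, against 9913 of 19775 genes. The one that fell was CD44, a hyaluronan receptor and Wnt target, at 9.70 ± 0.14 in sh-PRLR and 10.11 ± 0.06 in sh-Ctrl (log2 change -0.40, limma adjusted p = 0.0198, and 0.160 with default settings). Of its 13 probe sets 7 had the lower mean in sh-PRLR, 6 had the higher, and 1 passed. VIL1, villin of the intestinal brush border and a marker listed for enterocytes, also fell, to 6.66 ± 0.56 in sh-PRLR, against 7.69 ± 0.16 in sh-Ctrl (limma adjusted p = 0.0431, and 0.214 with default settings). Of its 4 probe sets 3 had a lower mean in sh-PRLR, 1 had a higher one, and 1 passed. VIL1 was the 1 of 6 enterocyte and secretory markers to fall, while 2 of the 6 had a lower mean in sh-PRLR and 4 a higher one. It was the brightest of them, with a mean of 7.18, and LYZ was next, with 4.43. The linear levels of the 6, of which VIL1 was the largest part, summed to between 136 and 184 in sh-PRLR, against 216 and 284 in sh-Ctrl. None of the 6 lay above the median gene level. The part of such a difference in the change of LGR5 was not tested.

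Of 13 receptors listed as Frizzled, LRP and related Wnt receptors, 12 were tested, with a median change of 0.06. In limma 0 of them passed, against 7.66% of all genes, and 1 (8.33%) had an unadjusted p under 0.05, against 20.3% of all genes. That 1 gene was LRP6, a Wnt co-receptor named after its values were seen, at 10.66 ± 0.11 in sh-PRLR and 10.41 ± 0.04 in sh-Ctrl, without overlap (log2 change 0.25, 95% interval 0.09 to 0.41, limma adjusted p = 0.0636). Of its 3 probe sets only this 1 had a higher mean in sh-PRLR, 2 had a lower one, and 0 passed. The brightest of the 12 receptors were RYK, a Wnt co-receptor, with a change of 0.05 (95% interval -0.06 to 0.16), and FZD7, with -0.06 (95% interval -0.17 to 0.06). For RYK and FZD7 the interval excludes a change as large as that of ZNRF3 or AXIN2.

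**Figure D4:**
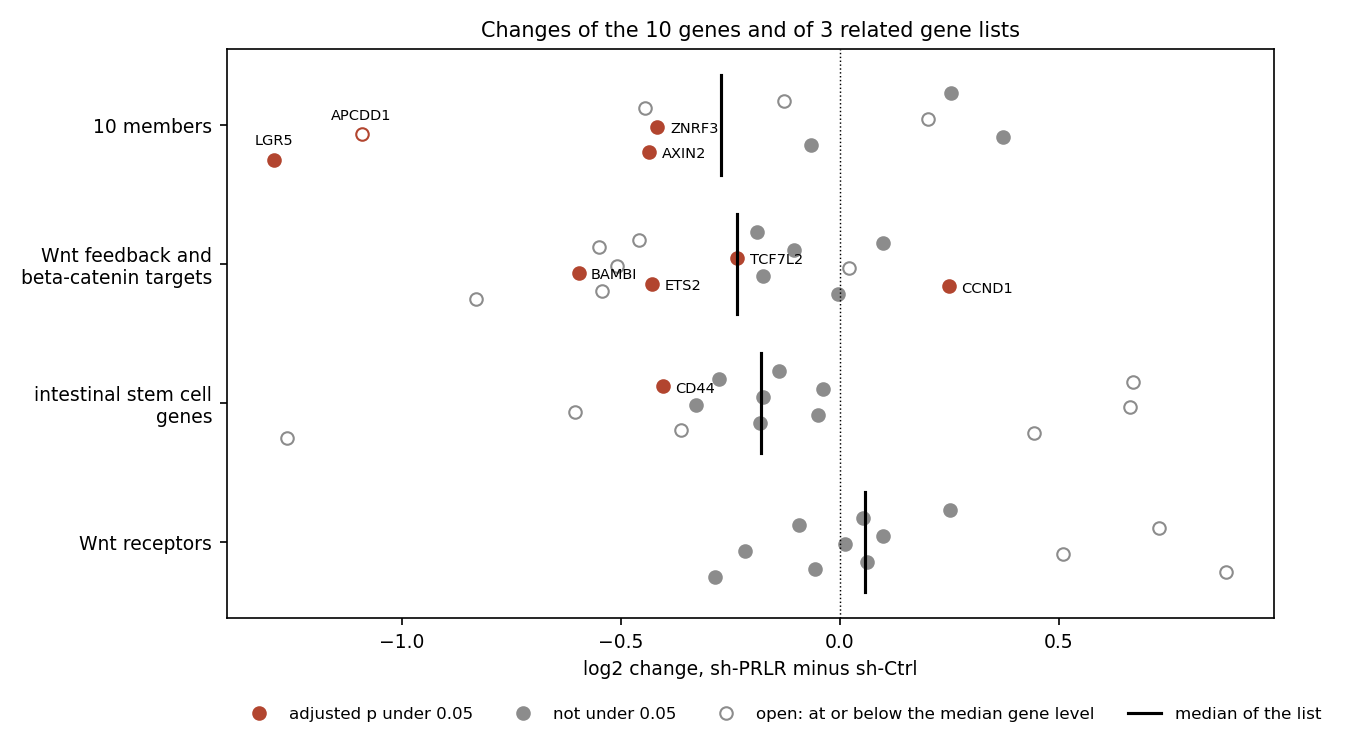
Log2 change (sh-PRLR minus sh-Ctrl) of each of the 10 genes and of the tested genes of 3 related lists. Black lines mark the medians of -0.27, -0.23, -0.18 and 0.06 from top to bottom, and genes in red passed in limma with intensity-dependent variance.

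By Euclidean distance over the 6 arrays, after each gene was centred on its mean, the genes above the median level with profiles most like LGR5 were SYTL2 (0.164 log2 units), VSNL1 (0.238), EFHD1 (0.303), IFI6 (0.307) and HNMT (0.341). SYTL2, a Rab27 effector in vesicle transport, read 9.23, 9.18 and 9.32 in sh-PRLR, against 10.66, 10.62 and 10.42 in sh-Ctrl. All 5 were lower in sh-PRLR, which the measure of likeness fixes, by -1.41 to -1.02. None of the other 9 genes was among them.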

How the data were processed

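Total RNA of SW-1990 cells was extracted with Trizol, labelled with biotin and hybridised to 6 arrays, per the labels' protocols, which name several amplification kits without saying which was used. The deposited log2 values, 1 per probe set and array, ran from -4.30 to 15.53. Per the submitters' processing notes the tools were MAS5, RMA and affy, with no role or version given. The mean on the linear scale with 2% trimmed from each end was 500 on all arrays, as MAS5 scaling gives, so the deposited log2 values were not normalised again. The number of arrays limits the precision, and the scatter of dim probe sets limits it further.

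Of 54675 probe sets, 41091 with 1 gene symbol in the platform annotation were used, without control probe sets. RefSeq symbols looked up by Entrez ID changed 0 of them. The test was limma's (version 3.58.1, under R 4.3.3) with lmFit and eBayes, trend and robust on, two-sided, with Benjamini-Hochberg adjustment over 19775 genes, or over all probe sets, at 0.05. Default eBayes, quantile normalisation, median centring, an offset of 64 on the linear scale, leaving out the dimmest 40%, averaged probe sets, leaving out _x_at and _s_at probe sets, a replicate block, limma's treat at a fold of 1.2 and each array left out were alternatives. The fit was checked on simulated data. All 10 genes were named. From each related list up to 4 genes with the smallest p past 0.05 were named, or the brightest pair where none passed, and also the 5 genes nearest to LGR5, PRLR and the tested markers. The members and lists were chosen with earlier results of these data known, and so was the intensity-dependent test. Figures were drawn with matplotlib 3.10.9 in Python 3.11.15.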

Additional observations from a re-analysis of the deposited data

How the results depend on the processing

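LGR5 kept its direction and its call under all 15 alternatives of the gene test, with changes of -1.32 to -1.20 and a highest limma adjusted p of 0.0449. The count of the 10 genes that fell was 1 in place of 4 with default eBayes and with treat, and 2 with averaged probe sets. It was 3 after median centring and 3 to 4 with an array left out. RNF43 passed as the 1 gene that was higher with quantile normalisation and without the dimmest 40%, and as the 1 probe set that was higher without the dimmest 40%. The 6 probe sets that fell became 0 with default eBayes, 2 with treat, 4 after median centring and 5 without _x_at and _s_at probe sets. With an array left out they became 3 to 6, the 3 without sh-Ctrl replicate 1 or 3.

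Over all genes 1514 were called, 43.6% of them higher, against 4 with default eBayes, 504 after median centring (28.4% higher), 609 with averaged probe sets, 131 with treat and 665 to 1322 with an array left out, the 1322 without sh-PRLR replicate 1 and at most 948 without any other. Median centring moved the median change of all genes by -0.034. Deviations of same-numbered arrays from their group means correlated at -0.056, 0.059 and -0.10, and 2 of 6 arrays correlated best with their own number, so the numbers were not taken as pairs. With the replicate block 4 of the 10 genes and 5 of the 19 probe sets fell, without AXIN2 224176_s_at (limma adjusted p = 0.0768), and 1090 of all genes were called.

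Some of the changes that did not pass turned sign, and no call did. With an array left out, the ranges were -0.23 to 0.052 for LGR4, -1.07 to 0.56 for RSPO3, -0.33 to 0.036 for RSPO1, and -0.17 to 0.66 (229481_at), -0.043 to 0.28 (232203_at) and -0.46 to 0.24 (1553115_at) for NKD1. For AXIN2 224498_x_at the range was -0.088 to 0.13, and quantile normalisation gave 0.0027. For RSPO3 the interval reached past 2-fold in both limma fits, and for RSPO1 only with intensity-dependent variance.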
